A study of Homo sapiens with 12 samples.

Results

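Condensin subunits and type II topoisomerases were followed in uveal melanoma cells treated with an inhibitor of the kinase ATR. The set holds 10 genes chosen by function, with earlier results of these data known. They are the shared subunits SMC2 and SMC4, the condensin I subunits NCAPD2, NCAPG and NCAPH, and the condensin II subunits NCAPD3, NCAPG2 and NCAPH2. The topoisomerases TOP2A and TOP2B complete the set. The 10 were found by gene name among 44938 features with counts in 92.1 and 42342 in MP38, of which 38997 were in both. All 10 were present in both tables, and all 10 passed the filter on low counts in each comparison.

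The 4 groups compared were 92.1 VE-822, 92.1 DMSO, MP38 VE-822 and MP38 DMSO, with 3 poly(A) RNA-seq libraries in each and 12 in all. 92.1 and MP38 are established human uveal melanoma lines, grown from a tumour of the pigment cells of the eye. Cells were held for 72 hours in VE-822 (berzosertib), which blocks ATR, or in DMSO, its solvent. The labels give no concentration of VE-822, only that it left about 40% of the cells viable, so that dose and line cannot be told apart; nothing in them ties the libraries to separate cultures, in which case the p-values reflect only the spread among these libraries, which may be technical.

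Condensins are ring-shaped complexes that use ATP to pull DNA into loops and so compact chromosomes for mitosis. Both complexes share the ATPase pair SMC2 and SMC4 and differ in the subunits that close the ring and hold DNA: a kleisin (NCAPH in condensin I, NCAPH2 in condensin II) and a pair of HEAT-repeat proteins (NCAPD2 and NCAPG, or NCAPD3 and NCAPG2). Condensin II is in the nucleus throughout interphase, whereas condensin I reaches the chromosomes once the nuclear envelope has broken down. Type II topoisomerases cut both strands of one DNA duplex and pass another through the gap, which untangles sister chromatids. TOP2A is made in cycling cells and peaks around mitosis, and TOP2B is also made in cells that have left the cycle. ATR acts when replication forks stall, and it restrains entry into mitosis.

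Total counts per library were 113370680 to 137664800 in 92.1 VE-822, 112374503 to 123705501 in 92.1 DMSO, 54415628 to 60891725 in MP38 VE-822 and 61045071 to 63638976 in MP38 DMSO. The third 92.1 DMSO library stood apart: its counts differed from those of the other two by a chi-square per gene of 92.95 and 93.6, against 2.39 to 8.32 for the other pairs within a group. Results in 92.1 are therefore also given without it. The 6 melanocyte markers checked (PMEL, MLANA, MITF, TYR, DCT and TYRP1) summed to 19200 to 19500 CPM (counts relative to a library's TMM-adjusted total) in 92.1 VE-822, 18400 to 18700 in 92.1 DMSO, 4900 to 4950 in MP38 VE-822 and 3780 to 3950 in MP38 DMSO. The 3 leukocyte markers summed to at most 0.532 CPM in any library, the 3 epithelial markers to at most 0.440 CPM and the 3 endothelial markers to at most 3.76 CPM. Of the retinal pigment epithelium markers, BEST1 and RLBP1 were detected and RPE65 had at most 24 reads in a group; the 3 summed to 42.1 to 42.8 CPM in 92.1 VE-822, 35.0 to 62.4 in 92.1 DMSO, 306 to 351 in MP38 VE-822 and 283 to 302 in MP38 DMSO. Their part in the results below was not tested.

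The set moved in opposite directions in the lines. In 92.1, all 10 genes were lower in VE-822 than in DMSO, by log2 fold changes between -2.19 (NCAPG) and -0.29 (TOP2B). In MP38, 9 of the 10 were higher in VE-822, by 0.12 (TOP2B) to 1.44 (NCAPG), and NCAPD3 was not called. A gene was called where the adjusted p of edgeR's quasi-likelihood test, Benjamini-Hochberg over all genes tested, was under 0.05. Of all 22943 genes tested in 92.1, 19.6% were called lower and 39.9% in either direction; of all 21415 in MP38, 26.9% were called higher and 52.3% in either direction. The CPM of the groups did not overlap for all 10 genes in 92.1 and for 9 in MP38, beside 25.2% of all genes tested lower in this way in 92.1 and 29.7% higher in MP38. The median log2 fold change of the 10 genes was -1.78 in 92.1 and 0.46 in MP38, beside 0.03 and -0.01 over all genes tested in each line. In bulk RNA, a smaller share of cells that express a gene and less of its RNA per cell cannot be told apart.

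**Figure D1:**
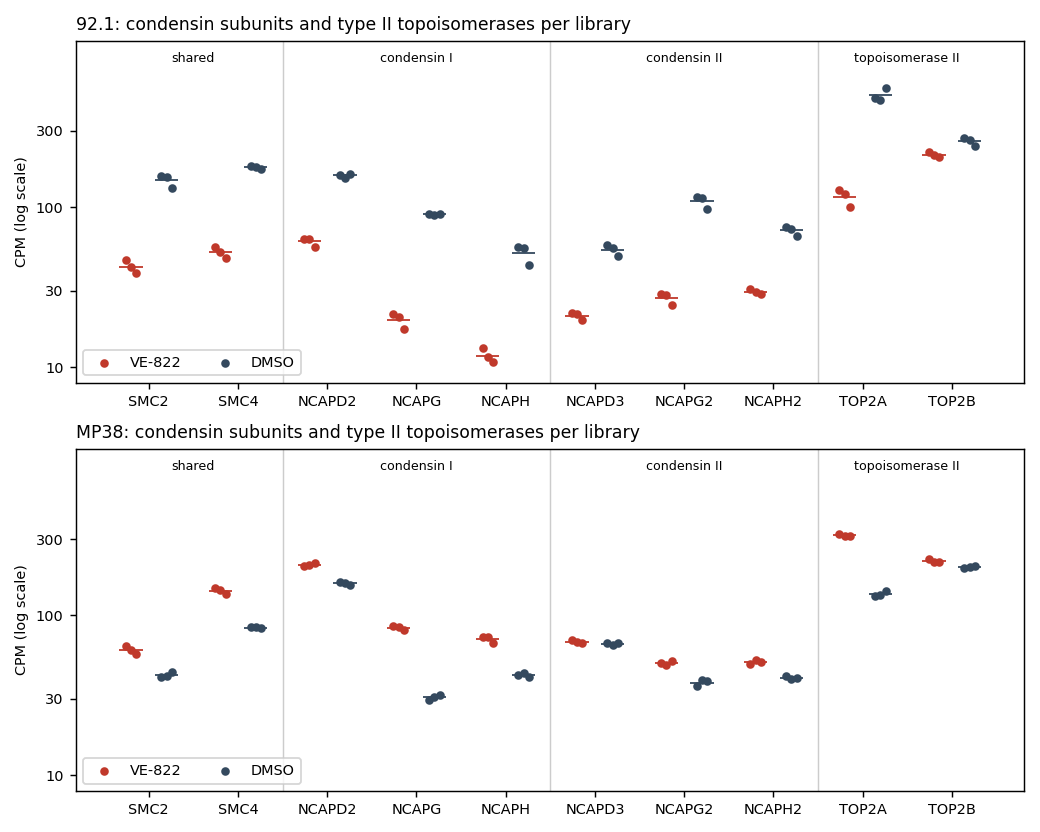
CPM of the 10 genes in each library (log axis, 1 panel per line; points are libraries and short lines the means of 3). In 92.1 the VE-822 libraries lie below the DMSO libraries for all 10 genes; in MP38 they lie above them for all but NCAPD3, whose groups overlap.

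The SMC2 and SMC4 proteins form the ATPase core that both condensins use. SMC2 (ENSG00000136824.19, chr9:104094260-104141419, plus strand) had 46.7, 42.4 and 38.5 CPM in the 92.1 VE-822 libraries and 156, 154 and 132 CPM in the 92.1 DMSO libraries. SMC4 (ENSG00000113810.16, chr3:160399274-160434954, plus strand) had 56.7, 52.8 and 48.2 CPM in 92.1 VE-822 and 181, 179 and 175 CPM in 92.1 DMSO. For both genes every treated library of 92.1 lay far below the lowest control. The log2 fold change was -1.79 ± 0.0889 (SE) for SMC2, with an adjusted p of 1.86e-06 by edgeR. It was -1.76 ± 0.0639 for SMC4, with an adjusted p of 6.4e-07 by edgeR. In MP38 the same core was higher in the treated cells. SMC2 had 64.5, 60.4 and 57.7 CPM in MP38 VE-822 and 41.0, 42.0 and 44.4 CPM in MP38 DMSO, a log2 fold change of 0.52 ± 0.0461 (edgeR adjusted p = 7.74e-09). SMC4 had 147, 144 and 137 CPM in MP38 VE-822 and 84.1, 84.9 and 82.8 CPM in MP38 DMSO, a log2 fold change of 0.77 ± 0.0384 (edgeR adjusted p = 1.18e-12). The rise of SMC4 was the larger of the pair. SMC4 overlaps IFT80 by 607 bases and TRIM59 by 2510 bases on the other strand, and whether the authors' counting used strand is not given in the sources used here. IFT80 had 5922 reads in 92.1 VE-822, 6391 in 92.1 DMSO, 3246 in MP38 VE-822 and 4296 in MP38 DMSO, and TRIM59 had 610 or fewer in each group, against 15935 or more for SMC4.

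Condensin I compacts chromosome arms after the nuclear envelope has broken down. NCAPG (ENSG00000109805.10, chr4:17810979-17844865, plus strand), one of its HEAT-repeat subunits, had the largest fold change of the 10 genes in MP38. In 92.1 its fold change differed from that of NCAPH and from that of TOP2A by less than the SE of either of these, and without the third DMSO library NCAPH had the larger one. It had 21.3, 20.5 and 17.4 CPM in 92.1 VE-822 and 90.9, 89.1 and 90.2 CPM in 92.1 DMSO. In MP38 it had 86.0, 84.1 and 81.1 CPM in VE-822 and 29.5, 30.9 and 32.0 CPM in DMSO. Within each line the treated and control libraries were far apart, on opposite sides in the 2 lines. Its log2 fold changes were -2.19 ± 0.0778 in 92.1 (edgeR adjusted p = 6.32e-07) and 1.44 ± 0.0425 in MP38 (edgeR adjusted p = 3.99e-16). NCAPG overlaps LCORL by 3667 bases on the other strand. LCORL had 9483 raw reads in 92.1 VE-822 and 13353 in 92.1 DMSO, and 4024 in MP38 VE-822 and 2776 in MP38 DMSO. NCAPG itself had 7867, 31280, 14394 and 5849 in the same groups, fewer than LCORL in 92.1 VE-822. The reads of both genes changed in the same direction in each line, and how many reads the genes share was not tested. The pseudogene NCAPGP1, a near copy, had 10 to 60 reads per library, against 1871 or more for NCAPG.

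NCAPH (ENSG00000121152.10, chr2:96335766-96377091, plus strand), the kleisin that closes the ring of condensin I, had 13.1, 11.5 and 10.8 CPM in 92.1 VE-822 and 56.3, 55.6 and 43.4 CPM in 92.1 DMSO. In MP38 it had 73.5, 73.3 and 67.2 CPM in VE-822 and 42.4, 43.9 and 41.2 CPM in DMSO. Neither pair of groups overlapped, and the third 92.1 control was the lowest of its group. NCAPH fell by 2.13 on the log2 scale in 92.1 (SE 0.116, edgeR adjusted p = 3.05e-06) and rose by 0.75 ± 0.0438 in MP38 (edgeR adjusted p = 1.35e-11). NCAPD2 (ENSG00000010292.13, chr12:6493356-6531955, plus strand), the other HEAT-repeat subunit, was the most abundant non-SMC subunit per length in every group. Its CPM was 63.2, 63.2 and 56.6 in 92.1 VE-822 and 159, 153 and 162 in 92.1 DMSO, and 204, 206 and 212 in MP38 VE-822 and 161, 161 and 154 in MP38 DMSO. It moved least of the 3 condensin I subunits in both lines, by -1.37 ± 0.0573 in 92.1 (edgeR adjusted p = 9.93e-07) and 0.39 ± 0.0368 in MP38 (edgeR adjusted p = 2.13e-08). NCAPD2 shares 486 bases with MRPL51 on the other strand, which had 21054 reads in 92.1 VE-822 and 20271 in 92.1 DMSO, and 10956 in MP38 VE-822 and 9949 in MP38 DMSO. NCAPD2 itself had 24278, 54902, 35632 and 30111 in the same groups.

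Condensin II begins compaction in the nucleus in prophase. All 3 of its own subunits fell in 92.1, whereas in MP38 2 rose and NCAPD3 was not called. NCAPG2 (ENSG00000146918.20, chr7:158631169-158704804, minus strand), the paralog of NCAPG, had 28.6, 28.2 and 24.4 CPM in 92.1 VE-822 and 115, 114 and 97.3 CPM in 92.1 DMSO. In MP38 it had 50.1, 49.0 and 52.2 CPM in VE-822 and 36.0, 39.3 and 38.6 CPM in DMSO. Its groups were far apart in 92.1 and close together, without overlap, in MP38. The log2 fold changes were -2.00 ± 0.0866 in 92.1 (edgeR adjusted p = 1.17e-06) and 0.41 ± 0.0441 in MP38 (edgeR adjusted p = 1.32e-07). NCAPH2 (ENSG00000025770.19, chr22:50508224-50524780, plus strand), the kleisin of condensin II, had 30.8, 29.4 and 28.6 CPM in 92.1 VE-822 and 75.2, 73.2 and 66.4 CPM in 92.1 DMSO, and it fell least of the 8 condensin genes, by -1.28 ± 0.0621 (edgeR adjusted p = 1.74e-06). In MP38 it had 49.8, 52.5 and 51.3 CPM in VE-822 and 41.8, 40.1 and 40.5 CPM in DMSO, a log2 fold change of 0.33 ± 0.0407 (edgeR adjusted p = 9.18e-07). It overlaps SCO2 by 1213 bases on the other strand, and SCO2 had 160 to 295 reads in a group against 7749 or more for NCAPH2.

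NCAPD3 (ENSG00000151503.13, chr11:134150113-134225454, minus strand), the HEAT-repeat subunit that pairs with NCAPG2, was the exception in MP38. Its CPM was 69.8, 68.6 and 67.0 in MP38 VE-822 and 67.0, 65.1 and 67.5 in MP38 DMSO. The lowest treated library was below the highest control, and this was the only overlap among the 10 genes in either line. The log2 fold change of NCAPD3 in MP38 was 0.04 ± 0.0377 with a 95% interval of -0.0373 to 0.1202 (edgeR adjusted p = 0.382). A rise of the size seen for NCAPH2, 0.33, lies outside that interval. In 92.1, NCAPD3 had 21.7, 21.5 and 19.7 CPM in VE-822 and 58.2, 55.7 and 49.2 CPM in DMSO, and its log2 fold change was -1.38 ± 0.0759 (edgeR adjusted p = 3.33e-06). It overlaps VPS26B by 784 bases and JAM3 by 1889 bases on the other strand. In MP38, VPS26B had 4954 raw reads in VE-822 against 6818 in DMSO and JAM3 4748 against 6436, beside 11766 and 12632 for NCAPD3; whether their reads entered its count was not tested.

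**Figure D2:**
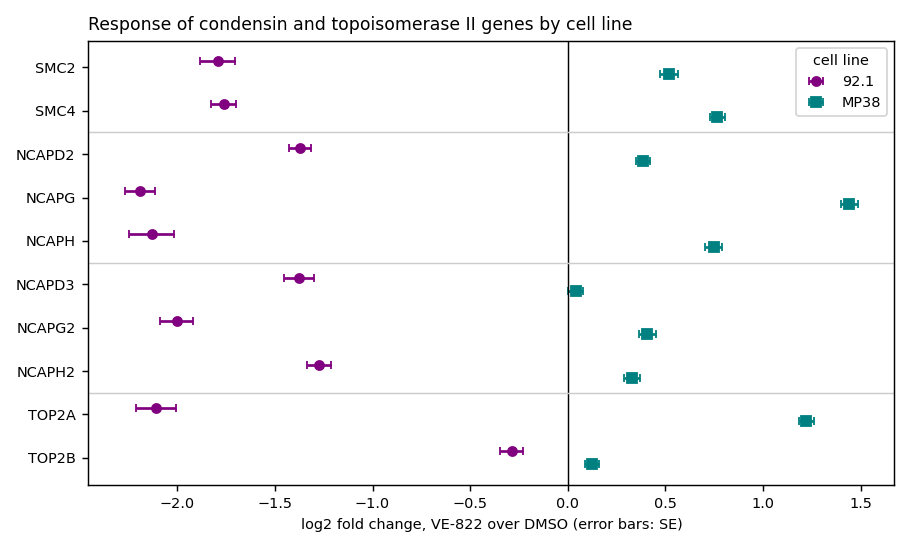
Log2 fold change of the 10 genes, VE-822 over DMSO, for 92.1 (circles) and MP38 (squares); error bars are SE from edgeR. Every 92.1 value is below 0, from -2.19 for NCAPG to -0.29 for TOP2B; in MP38 NCAPD3 lies at 0.04 and the other 9 at 0.12 to 1.44.

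The promoters of NCAPG and NCAPG2 are shown because these paralogs differed in MP38 by more than any other condensin pair. The sequences are RefSeq's, build GRCh38.p14, 250 bases before to 50 after the RNA start, read 5′ to 3′ on the gene's strand. NCAPG is at chr4:17810729-17811028 on the plus strand and NCAPG2 at chr7:158704755-158705054 on the minus strand. Capitals mark 3 motifs: the CHR element (TTTGAA or TTCGAA) known from genes of mitosis, the CCAAT box bound by NF-Y, and E2F sites, in the form TTCGCGC or the form TTGGCGC, the form TTCCCGC or the form TTGCCGC, all searched on both strands. No hit of a motif overlapped one of another.
NCAPG: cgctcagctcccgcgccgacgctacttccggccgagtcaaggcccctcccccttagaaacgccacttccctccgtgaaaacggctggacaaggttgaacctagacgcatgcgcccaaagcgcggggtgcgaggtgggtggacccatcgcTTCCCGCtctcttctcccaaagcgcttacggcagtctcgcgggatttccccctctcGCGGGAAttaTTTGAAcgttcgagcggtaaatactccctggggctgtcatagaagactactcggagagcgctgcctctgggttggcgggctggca
NCAPG2: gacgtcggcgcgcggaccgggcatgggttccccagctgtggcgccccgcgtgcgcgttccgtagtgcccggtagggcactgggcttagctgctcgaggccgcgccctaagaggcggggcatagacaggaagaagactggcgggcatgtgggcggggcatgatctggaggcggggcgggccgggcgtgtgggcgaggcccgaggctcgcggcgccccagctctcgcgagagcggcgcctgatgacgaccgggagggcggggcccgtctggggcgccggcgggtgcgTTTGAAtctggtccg
NCAPG had 1 CHR match at -35 from the start and 2 E2F matches at -101 and -45. NCAPG2 had 1 CHR match, at 36 within the transcribed part, and neither of the other motifs. Of 35116 promoters of this length, 16.4% held a CHR match, 34.6% a CCAAT match and 13% an E2F match, and 1.77% held 2 or more E2F matches. The matches describe these letters only and are not shown to be bound.

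Setting each condensin I subunit against its condensin II paralog within a library needs no scaling between libraries. Shares are given per length, of the summed FPKM of the pair. For the kleisins, NCAPH2 gave 77.5%, 79.0% and 79.5% in 92.1 VE-822, and 66.2%, 65.9% and 69.2% in 92.1 DMSO. In MP38 its share was 49.8%, 51.3% and 52.8% in VE-822, and 59.2%, 57.3% and 59.0% in DMSO. The condensin II kleisin thus took a larger share in treated 92.1 cells and a smaller one in treated MP38 cells, with no overlap in either line. For the G subunits, the share of NCAPG2 was 47.8%, 48.5% and 48.95% in 92.1 VE-822, and 46.3%, 46.55% and 42.4% in 92.1 DMSO. In MP38 it was 28.4%, 28.4% and 30.5% in VE-822, and 45.4%, 46.5% and 45.2% in DMSO. That was the widest gap of the 6 condensin comparisons, and its 92.1 counterpart was among the narrowest. For the D subunits, the share of NCAPD3 was 16.9%, 16.7% and 17.0% in 92.1 VE-822, and 17.7%, 17.65% and 15.2% in 92.1 DMSO, with the controls on both sides of the treated libraries. In MP38 it was 16.8%, 16.4% and 15.7% in VE-822, and 19.7%, 19.3% and 20.5% in DMSO.

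As mean log2 ratios of counts, condensin I over condensin II, VE-822 minus DMSO, the changes in MP38 were 1.03 for NCAPG/NCAPG2, 0.42 for NCAPH/NCAPH2 and 0.34 for NCAPD2/NCAPD3. All 3 pairs shifted toward condensin I in MP38, without overlap of the groups. In 92.1 they were -0.19, -0.85 and -0.0008, a shift toward condensin II in the G and H pairs. With all libraries included, none was to be seen in the D pair. In an exact two-sided permutation test over 3 against 3 libraries, 7 of the 8 ratios, TOP2A/TOP2B included, reached p = 0.1, the smallest this design allows, and NCAPD2/NCAPD3 in 92.1 had p = 1.0 in the same exact test. Adjusted over the 8 ratios (Benjamini-Hochberg) the 7 exact p-values were 0.114, so none can pass 0.05. Without the third 92.1 DMSO library, the G ratio in 92.1 was -0.11 and the D ratio 0.09 on the log2 scale. The D pair then leaned toward condensin I without overlap. Its log2 count ratios were 1.45 and 1.46 in the remaining DMSO libraries and 1.53 to 1.56 in VE-822. The H ratio was then -0.92 and that of TOP2A to TOP2B -1.70. The difference between the lines in these ratios was not tested.

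**Figure D3:**
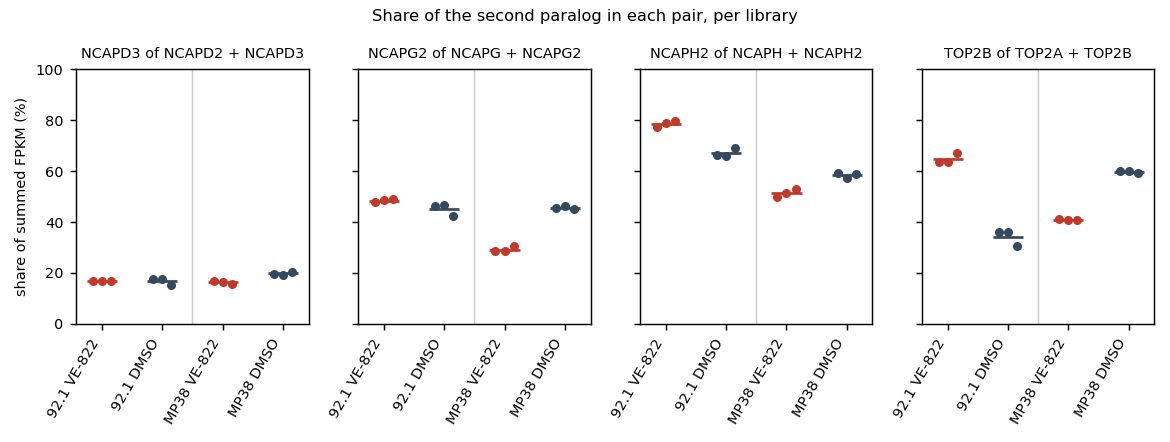
Share of the second paralog in the summed FPKM of each pair, in percent, for each library (points) and as the group mean (line); the 4 panels are the D, G and H subunit pairs and TOP2A with TOP2B. The NCAPG2 share is 28.4% to 30.5% in MP38 VE-822 and 45.2% to 46.5% in MP38 DMSO, and the TOP2B share is 63.6% to 67.3% in 92.1 VE-822 and 30.5% to 36.2% in 92.1 DMSO.

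The type II topoisomerases parted in both lines. TOP2A (ENSG00000131747.15, chr17:40388525-40417896, minus strand), the enzyme of dividing cells and the target of etoposide and doxorubicin, had 127, 121 and 100.2 CPM in 92.1 VE-822 and 481, 470.4 and 554 CPM in 92.1 DMSO. In MP38 it had 323, 314 and 316 CPM in VE-822 and 133, 134 and 141 CPM in DMSO. The third 92.1 control was the highest of the 12 libraries for TOP2A, and the highest of its group for NCAPD2. For SMC2, SMC4, NCAPH, NCAPD3, NCAPG2, NCAPH2 and TOP2B it was the lowest of its group, and for NCAPG it lay between the others. The log2 fold changes of TOP2A were -2.11 ± 0.101 in 92.1 (edgeR adjusted p = 1.62e-06) and 1.22 ± 0.0381 in MP38 (edgeR adjusted p = 9.52e-16). TOP2B (ENSG00000077097.16, chr3:25597984-25664907, minus strand), which acts in transcription and in cells outside the cycle, had 221, 211 and 205 CPM in 92.1 VE-822 and 271, 265 and 242 CPM in 92.1 DMSO. In MP38 it had 226, 216 and 216 CPM in VE-822 and 199, 199.5 and 205 CPM in DMSO. The groups did not overlap in either line, but they lay close together. TOP2B had the smallest change of the set in 92.1, -0.29 ± 0.0574 (edgeR adjusted p = 0.00435), and the smallest called change in MP38, 0.12 ± 0.0367 (edgeR adjusted p = 0.00781). The MP38 call was lost with library size scaling alone, in the fit of both lines together, in limma on FPKM, and without the first or the second MP38 DMSO library, with values of 0.08 to 0.13 and edgeR or limma adjusted p of 0.0501 to 0.163.

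Of the summed FPKM of both topoisomerases, TOP2B held 63.6%, 63.6% and 67.3% in 92.1 VE-822, and 36.2%, 36.2% and 30.5% in 92.1 DMSO. In MP38 it held 41.2%, 40.9% and 40.7% in VE-822, and 60.1%, 59.9% and 59.3% in DMSO. TOP2B was therefore the larger part in treated 92.1 cells and in control MP38 cells, and TOP2A in the other two groups. The log2 ratio of TOP2A to TOP2B changed by -1.83 in 92.1 and by 1.10 in MP38, VE-822 minus DMSO, each at the exact permutation limit of p = 0.1.

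The TOP2A and TOP2B promoters are shown because the 2 genes encode the same kind of enzyme and moved by such different amounts. TOP2A is at chr17:40417847-40418146 and TOP2B at chr3:25664858-25665157, both on the minus strand (RefSeq, GRCh38.p14). For TOP2B the table gives 2 starts, and the one printed coincides with the 5′ end of the counted feature. Capitals mark the same motifs as above.
TOP2A: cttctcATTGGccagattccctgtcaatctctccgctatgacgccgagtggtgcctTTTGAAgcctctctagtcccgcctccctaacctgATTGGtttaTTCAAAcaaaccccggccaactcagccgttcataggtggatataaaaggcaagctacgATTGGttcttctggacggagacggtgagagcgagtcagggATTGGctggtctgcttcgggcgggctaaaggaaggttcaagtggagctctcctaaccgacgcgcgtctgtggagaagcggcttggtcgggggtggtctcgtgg
TOP2B: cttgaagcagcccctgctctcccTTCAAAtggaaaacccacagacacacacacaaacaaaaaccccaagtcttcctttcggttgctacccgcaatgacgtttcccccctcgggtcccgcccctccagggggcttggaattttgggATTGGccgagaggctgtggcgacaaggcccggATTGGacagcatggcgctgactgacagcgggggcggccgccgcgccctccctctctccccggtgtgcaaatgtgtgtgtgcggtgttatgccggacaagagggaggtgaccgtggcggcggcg
TOP2A held 4 CCAAT matches, at -244, -160, -93 and -53, and 2 CHR matches, at -194 and -151. TOP2B held 2 CCAAT matches, at -105 and -73, and 1 CHR match at -227. No E2F match was found in either window. The other TOP2B start had no match to any of the 3 motifs. Of all 35116 promoters, 10.8% held 2 or more CCAAT matches and 2.51% held 2 or more CHR matches. Across the set, 9 of the 10 genes had an entry, with 13 promoters in all. NCAPD2 also had 4 CCAAT matches and 1 CHR match. SMC2, SMC4 and NCAPD3, each with 2 starts, had 1 CHR match at one of them and none at the other. At the start with the CHR match, SMC4 also had 1 E2F match, at -130. NCAPD3 there had 1 E2F match, at -249, and 2 CCAAT matches, at -110 and -45. NCAPH had 1 CCAAT match and no CHR match.

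The difference between the lines was tested in 1 fit of all 12 libraries, as the 92.1 response minus the MP38 response. All 10 genes were called with the lower response in 92.1, as were 18.8% of the 24958 genes tested (40.9% called in either direction). The differences were -3.60 ± 0.0937 for NCAPG and -3.30 ± 0.111 for TOP2A, the largest of the set. NCAPH differed by -2.85 ± 0.131, SMC4 by -2.50 ± 0.0804, NCAPG2 by -2.38 ± 0.104 and SMC2 by -2.28 ± 0.110. They were smaller for NCAPD2 at -1.73 ± 0.0703, NCAPH2 at -1.57 ± 0.0769 and NCAPD3 at -1.39 ± 0.0868, and smallest for TOP2B at -0.38 ± 0.0720 (edgeR adjusted p = 0.000491). Their median was -2.33, beside 0.11 over all genes tested. Without the third 92.1 DMSO library all 10 were still called lower, with differences of -3.65 (NCAPG) to -0.48 (TOP2B). With 1 library left out in turn, 4473 to 6015 genes in all were called lower in this difference. In the fit of 92.1 alone without the third DMSO library, all 10 were again lower, by -2.27 (NCAPH) to -0.37 (TOP2B). There 6899 of all 23816 genes tested were called lower.

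Levels of different genes can be compared only per length, here as the deposited FPKM (counts scaled to feature length and library total; means ± SD, n = 3). In 92.1 VE-822, TOP2B was first with 34.3 ± 0.758 FPKM and TOP2A second with 18.7 ± 2.01, followed by NCAPD2 with 9.66 ± 0.470. Next came NCAPH2 with 6.79 ± 0.145, SMC2 with 6.73 ± 0.540 and SMC4 with 6.59 ± 0.427, which overlapped in spread. So did NCAPG with 4.17 ± 0.379 and NCAPG2 with 3.90 ± 0.280, and NCAPD3 with 1.96 ± 0.0759 and NCAPH with 1.85 ± 0.157. Within each library of this group, NCAPG was above NCAPG2 and SMC2 above SMC4. The 92.1 controls kept the topoisomerases at the top in the other order. In 92.1 DMSO, TOP2A had 76.8 ± 6.73 FPKM, TOP2B 39.9 ± 2.48 and NCAPD2 23.8 ± 0.584. SMC2, with 22.2 ± 2.09, was within its spread of NCAPD2 and of SMC4 with 21.3 ± 0.438. Below them, NCAPG had 18.1 ± 0.133, NCAPH2 15.7 ± 1.03, NCAPG2 14.9 ± 1.39, NCAPH 7.72 ± 1.10 and NCAPD3 4.84 ± 0.417; of these only NCAPH2 and NCAPG2 overlapped in spread.

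MP38 had the mirror order for the topoisomerases. In MP38 VE-822, TOP2A had 49.2 ± 1.58 FPKM, TOP2B 34.1 ± 1.44 and NCAPD2 31.6 ± 0.109. SMC4 with 17.3 ± 1.04 and NCAPG with 17.1 ± 0.865 overlapped in spread, though SMC4 was the higher in each library. NCAPH2 with 11.3 ± 0.366 and NCAPH with 10.8 ± 0.773 overlapped too. SMC2 followed with 9.29 ± 0.706, which overlapped NCAPH in spread, then NCAPG2 with 6.998 ± 0.108 and NCAPD3 with 6.16 ± 0.259. The MP38 controls started with TOP2B at 32.2 ± 0.485 FPKM, NCAPD2 at 24.8 ± 0.630 and TOP2A at 21.7 ± 0.689. SMC4 had 10.4 ± 0.169 and NCAPH2 9.27 ± 0.182. SMC2 with 6.65 ± 0.266, NCAPH with 6.58 ± 0.232 and NCAPG with 6.44 ± 0.261 overlapped in spread, though SMC2 was above NCAPG in each library. NCAPD3 had 6.14 ± 0.0936, which overlapped NCAPG in spread, and NCAPG2 was last with 5.42 ± 0.260. The tables of the lines were made separately, so a level set across them carries no test. Between the controls, NCAPG stood at 18.1 FPKM in 92.1 and 6.44 in MP38 and TOP2A at 76.8 and 21.7, whereas NCAPD2 stood at 23.8 and 24.8. NCAPD3 is the longest feature of the set, 10970 bases, and an FPKM over bases that the cells do not use reads low.

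Most regulators of condensin were also lower in treated 92.1 and higher in treated MP38 cells. This list held 12 genes, among them the kinases CDK1, PLK1 and AURKB, which phosphorylate condensin subunits, and KIF4A, a chromosome motor that works with condensin I. In 92.1, 11 of the 12 were called lower and none higher, beside 19.6% lower among all genes tested. Their median log2 fold change was -1.34. AKAP8 was the one not called, at -0.02 ± 0.0602. AURKB, the Aurora kinase of the chromosomal passenger complex, fell by 2.29 on the log2 scale (SE 0.0946). CDK1, the kinase that drives mitosis, fell by 1.87 (SE 0.0764), PLK1, the Polo kinase, by 1.66 (SE 0.0602) and CCNB1, the cyclin partner of CDK1, by 1.43 (SE 0.0552), each with an edgeR adjusted p of 9.47e-07 or less. In MP38, 9 were called higher and 2 lower, with a median of 0.86, beside 26.9% higher and 25.4% lower among all genes tested. PLK1 rose by 1.57 ± 0.0426, KIF4A by 1.43 ± 0.0418, CDK1 by 1.40 ± 0.0436 and CCNB1 by 1.32 ± 0.0409, each with an edgeR adjusted p of 8.86e-16 or less. The 2 lower in MP38 were the retinoblastoma gene RB1 at -0.21 ± 0.0462 and AKAP8, which anchors condensin to chromatin, at -0.19 ± 0.0399. MCPH1, which restrains condensin II in interphase, was not called in MP38 at 0.06 ± 0.0543, and in 92.1 it was lower by -0.22 ± 0.0574 (edgeR adjusted p = 0.0167).

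Partners of topoisomerases were mostly lower in 92.1. Of 12 genes, 9 were called lower, none higher and 3 not in 92.1 (median -0.36), beside 19.6% lower among all genes tested. In MP38, 6 were called higher, 1 lower and 5 not (median 0.12), beside 26.9% higher among all genes tested. The share called in either direction was near the 52.3% of all genes tested. In 92.1 the genes of this list with the smallest adjusted p were BLM, RMI2, RMI1 and ERCC6L (edgeR adjusted p of 2.6e-05 or less). The helicase BLM stood at -2.21 ± 0.110 and its partners RMI2 at -1.90 ± 0.0569 and RMI1 at -1.42 ± 0.1004. ERCC6L, the anaphase bridge translocase, stood at -2.17 ± 0.170. In MP38 the first 3 of these were not called, BLM at 0.07 ± 0.0524, RMI2 at 0.06 ± 0.0685 and RMI1 at 0.04 ± 0.0926, and ERCC6L was higher by 0.28 ± 0.0819 (edgeR adjusted p = 0.00742). The leading changes in MP38 were TOP1, the nuclear type I enzyme, at 0.87 ± 0.0435 and TOP1MT, its mitochondrial relative, at -0.43 ± 0.0419. TOP3A, the type I enzyme that acts with BLM, rose by 0.18 ± 0.0396 and TDRD3, a partner of TOP3B, by 0.20 ± 0.0505 (edgeR adjusted p of 0.00234 or less for these 4). In 92.1 neither TOP1 at -0.10 ± 0.0478 nor TOP1MT at -0.12 ± 0.0491 was called. TOP3A was lower there by -0.65 ± 0.0742 (edgeR adjusted p = 0.000217), less than BLM, RMI1 and RMI2.

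The other SMC complexes were represented by 10 genes of cohesin and SMC5/6. In 92.1, 7 were called lower and none higher (median -0.67), beside 19.6% lower among all genes tested. In MP38, 5 were called higher and 1 lower (median 0.13), beside 26.9% higher among all genes tested. The share called in either direction was near the 52.3% of all genes tested. The cohesin ATPases SMC1A and SMC3 stood at -1.18 ± 0.0632 and -0.78 ± 0.0535 in 92.1, and at 0.26 ± 0.0367 and 0.28 ± 0.0352 in MP38 (edgeR adjusted p of 1.16e-05 or less in each). NSMCE4A, a kleisin of SMC5/6, was lower in both lines, by -1.01 ± 0.0752 in 92.1 and -0.27 ± 0.0418 in MP38. SLF2, which helps bring SMC5/6 to damaged DNA, stood at -0.91 ± 0.0597 in 92.1, and NSMCE2, the SUMO ligase of SMC5/6, rose by 0.54 ± 0.0419 in MP38. No test set the lists against each other.

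**Figure D4:**
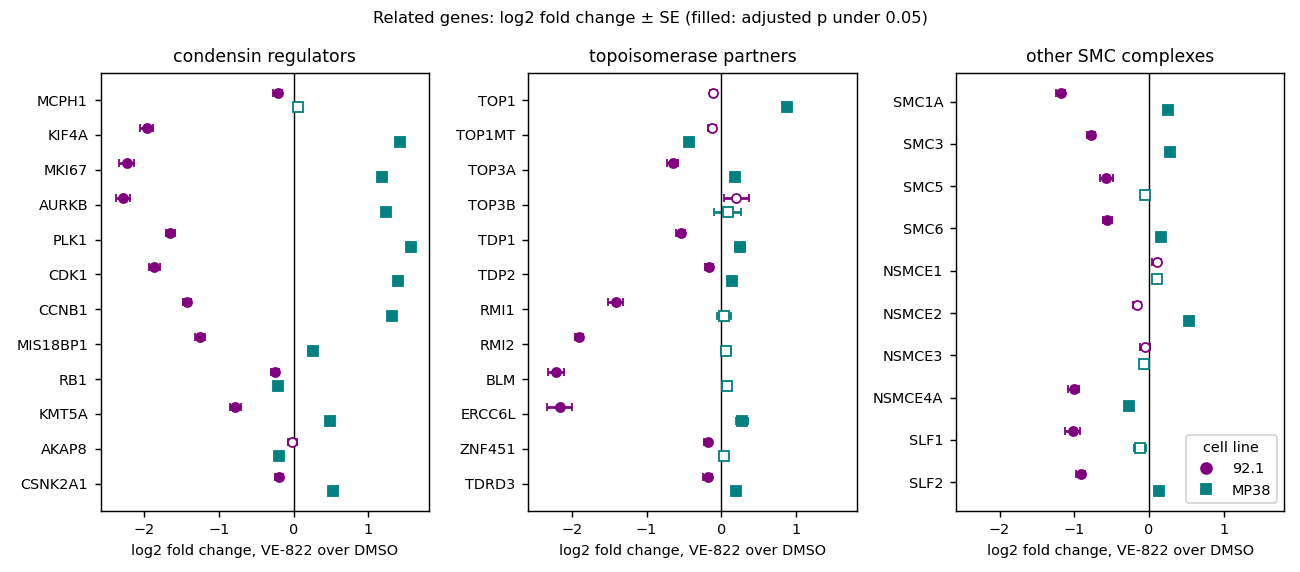
Log2 fold change, VE-822 over DMSO, of the genes of the 3 context lists in 92.1 (circles) and MP38 (squares), with SE bars and filled points for called genes. Most regulators lie far below 0 in 92.1 and above 0 in MP38, while partners of topoisomerases and the other SMC genes lie closer to 0 in MP38.

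The genes most like a member were taken as those with the highest Pearson r of log2 CPM over the 12 libraries, with each line centred on its own mean, among 10189 genes of at least 5 CPM in both lines. For NCAPG they were ASPM (r = 0.9991), CDCA8 (0.999), KIF18A (0.9986), KIF14 (0.9985) and GGH (0.9978). For TOP2A they were KIF2C (0.9988), RACGAP1 (0.998), RAD21 (0.998), PRR11 (0.9977) and GGH (0.9975). NCAPH2 had other neighbours, ATAD2 (0.9975), SUV39H1, PKMYT1 and MDC1 (0.997 each) and SMC1A (0.9968). TOP2B had FAM98B (0.9907), PPIG (0.9885), API5 (0.9878), and LSM2 and COMMD10 (0.9839 each). The 12 points share line, treatment and library, so these values are a description only.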

How the data were processed

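RNA from 12 libraries was analysed, 3 in each of 4 groups given by the labels' titles. The authors deposited raw counts per feature in 1 table per line, and FPKM tables from the same counts, which were checked to lie within 0.00051 of each count divided by feature length and library total. Per the submitters' processing notes, the tools were STAR 2.7.11a, featureCounts 2.0.6, cutadapt 4.8, MultiQC 1.7 and FastQC 0.12.1 and the build GRCh38.p13; the annotation release and the strand setting are not given in the sources used here. Positions and feature lengths are those of the deposited tables, and strands were taken from GENCODE.

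The members and lists were chosen with earlier results of these data known. Counts were fitted in R 4.3.3 with edgeR 4.0.16: filterByExpr (minimum count 10, minimum total 15), TMM, and the quasi-likelihood F test of VE-822 against DMSO within each line, or of the difference between lines in 1 fit of all libraries. Benjamini-Hochberg adjustment ran over all genes tested, and genes were called at an adjusted p under 0.05. SE values were taken from the F statistic, and intervals are 95% intervals. CPM values use TMM factors. Paralog ratios used raw counts, paralog shares the deposited FPKM; the ratios were compared by exact two-sided permutation tests. Alternatives were DESeq2 1.42.0, limma 3.58.1 on voom values or on log2(FPKM + 1), other scaling, other filters, a replicate block and each library left out. Replicates differed by more than counting error, and with totals of 54415628 or more per library counting error was small for all members. Every member and, in each line, up to 4 called genes of each list by smallest adjusted p were named, with the 5 genes most like NCAPG, NCAPH2, TOP2A and TOP2B; other genes named from the lists were chosen after their values were seen. Same-numbered libraries correlated at under 0.1 in their deviations from the group means, so no pairing was used. Gene names are those of the files, and promoter sequences matched 9 of the 10 members by symbol. Protein sequences were not used here.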

Additional observations from a re-analysis of the deposited data

Results flagged for a closer look

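The responses of the lines to VE-822 differed for each of the 10 genes, and the difference itself was tested in the edgeR fit of all 12 libraries. As the 92.1 response minus the MP38 response on the log2 scale, it was -2.28 for SMC2 and -2.50 for SMC4, the shared core. For condensin I it was -1.73 for NCAPD2, -3.60 for NCAPG and -2.85 for NCAPH. For condensin II it was -1.39 for NCAPD3, -2.38 for NCAPG2 and -1.57 for NCAPH2. It was -3.30 for TOP2A and -0.38 for TOP2B (-0.382 at 3 digits). All were past an adjusted p of 0.05, and 40.9% of all genes tested were.

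The same test was made for the genes named from the context lists. Among regulators it was -3.37 for KIF4A, -3.50 for AURKB, -3.20 for PLK1, -3.24 for CDK1, -2.72 for CCNB1, -0.245 for MCPH1 and 0.201 for AKAP8. Among partners of topoisomerases it was -0.95 for TOP1, 0.334 for TOP1MT, -0.805 for TOP3A, -1.43 for RMI1, -1.93 for RMI2, -2.26 for BLM, -2.41 for ERCC6L and -0.353 for TDRD3. In the other SMC complexes it was -1.41 for SMC1A, -1.02 for SMC3, -0.668 for NSMCE2, -0.71 for NSMCE4A and -1.03 for SLF2. TOP1MT and AKAP8 had the higher response in 92.1. All the values in this paragraph were past an adjusted p of 0.05 but that of RB1, -0.01.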

How the results depend on the processing

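Of 500 member fold changes under other settings, 495 kept their direction and their side of the threshold; the other 5 were TOP2B in MP38, with values given above. Of 200 counts, 195 stayed within 1.5 times. The other 5 were counts over all genes in 92.1: 2915 higher and 2802 lower among genes of at least 5 CPM, 2757 lower in limma on log2(FPKM + 1), 7213 higher in voom with quality weights, and 6899 lower without the third DMSO library (4658 higher and 4498 lower as reported). Leaving out 1 library in turn gave 3399 to 6377 higher and 3343 to 6899 lower. The cause was not tested. With library size scaling alone 61.7% of calls in 92.1 were higher, against 50.9% with TMM, and the median of all genes was 0.10. The NCAPD2/NCAPD3 ratio in 92.1 ranged from -0.0466 to 0.0865 when 1 library was left out, changing sign without the third VE-822 library (0.0071) and without the third DMSO library (0.0865). The other 62 of 64 ratio alternatives kept their sign. Of 160 FPKM levels, 6 moved by more than their SD, all when TMM factors were applied.

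Same-numbered libraries correlated at 0.0406, 0.0656 and 0.0822 in 92.1, each VE-822 library best with its own number, and at -0.00655, -0.00302 and -0.0208 in MP38. With the replicate number as a block, 4429 genes were higher and 4333 lower in 92.1, 5494 and 5172 in MP38, and 5315 and 4566 in the difference; the members kept 10, 9 and 10 calls, and paralog ratios tested by sign flips within pairs had an exact p of 0.25 or more, the smallest possible with 3 pairs. Limits are the 3 libraries per group, the dose set by viability, the overlapping genes and the third 92.1 DMSO library.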
